A study of Mus musculus with 15 samples.

Results

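The 10 genes described here encode the transport and secretory machinery of the loop of Henle and the distal nephron of the kidney: Umod, Egf, Slc12a1, Slc12a3, Scnn1a, Scnn1b, Scnn1g, Calb1, Trpm6 and Trpv5. They were listed by symbol from their known roles, and all 10 were found among the 46078 genes of the count table. In the thick ascending limb, the cotransporter encoded by Slc12a1 takes up sodium, potassium and chloride from the tubular fluid, and the same cells secrete uromodulin, the product of Umod, into the urine. In the distal convoluted tubule, sodium chloride enters through the thiazide-sensitive cotransporter encoded by Slc12a3, and magnesium enters through the channel encoded by Trpm6. Further along, calcium enters through the channel encoded by Trpv5 and is carried across the cell by calbindin, encoded by Calb1, while sodium enters through the epithelial sodium channel, whose 3 subunits are encoded by Scnn1a, Scnn1b and Scnn1g.

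RNA was sequenced from a podocyte fraction of male C57BL/6J mice, prepared by digesting kidney cortex after the medulla was removed and sorting cells magnetically with antibodies against nephrin, a protein of the podocyte slit diaphragm. Young mice were 4 months old and were not injected. Aged mice were 21 months old and received 12 mg/kg of either an isotype control antibody (clone 2A3, IgG2a) or an antibody that blocks the immune checkpoint receptor PD-1 (clone RMP1-14, aPD1ab) once a week for 8 weeks, although the titles of the aPD1ab samples give 47 days. Because the young mice received no injection, age and injection cannot be told apart in any comparison with them. The strand handling of the kit was not given in the sources used here.

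Of the 15 count columns, 13 were used, from 5 young, 4 aged IgG2a and 4 aged aPD1ab libraries. Each group was described as separate mice. The column names match no sample title, and the groups of the columns were read from numbers printed in the study's principal component plot, so every comparison below rests on that reading. Library totals ranged from 19912969 to 32717100 counts, and the lowest count of any of the 10 genes in any library was 302. The 10 genes together took 0.862% to 1.32% of the counts in young, 0.513% to 1.63% in aged IgG2a and 0.67% to 1.32% in aged aPD1ab libraries.

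One library stood apart. Aged IgG2a replicate 1 had the highest level of its group for 9 of the 10 genes, the exception being Slc12a1. In the other groups, young replicate 4 was highest for 7 of the 10 and aged aPD1ab replicate 1 for 6. Results of the 10 genes that include aged IgG2a replicate 1 are given with and without it. It was singled out after earlier results of these data had shown it to stand apart. Leaving it out lowers the group at most of the 10 genes, so calls made without it rest on that choice. Its summed proximal tubule marker level, in CPM, the read count of a gene relative to the library total after scaling by the trimmed mean of M values (TMM), was the 9283 CPM that tops the aged IgG2a range, against 1822 CPM in the lowest library of that group. The podocyte label was only partly met by the RNA: the 14 podocyte markers were all detected in every group, but their summed level was 947 to 1514 CPM in young, 558 to 753 CPM in aged IgG2a and 293 to 920 CPM in aged aPD1ab libraries, while Umod alone reached 1981 CPM or more in every library. The 10 genes are known from other nephron segments than the glomerulus. In such bulk libraries, fewer cells of a segment and less RNA per cell cannot be told apart.

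Of the 10 genes, 3 are introduced by the sequence upstream of their RefSeq transcription start (build GRCm38.p6), since Umod was the most abundant, Slc12a3 served below as the reference for the distal convoluted tubule and Trpv5 was the member called in aged aPD1ab against young. Each line is read 5′ to 3′ on the strand of the gene and ends at the base before the start. Capitals mark matches to the motifs searched on both strands.
Umod, chr7:119479263-119479512, minus strand: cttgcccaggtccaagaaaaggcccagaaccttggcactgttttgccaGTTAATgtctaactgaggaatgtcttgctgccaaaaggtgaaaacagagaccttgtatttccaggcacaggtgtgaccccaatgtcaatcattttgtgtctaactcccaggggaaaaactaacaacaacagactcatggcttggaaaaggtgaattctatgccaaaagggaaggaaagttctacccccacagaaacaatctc
Slc12a3, chr8:94328958-94329207, plus strand: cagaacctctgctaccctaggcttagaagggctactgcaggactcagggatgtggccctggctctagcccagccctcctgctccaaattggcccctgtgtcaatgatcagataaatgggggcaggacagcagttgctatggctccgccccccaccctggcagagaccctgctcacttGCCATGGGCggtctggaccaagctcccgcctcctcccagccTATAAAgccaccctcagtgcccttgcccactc
Trpv5, chr6:41680724-41680973, minus strand: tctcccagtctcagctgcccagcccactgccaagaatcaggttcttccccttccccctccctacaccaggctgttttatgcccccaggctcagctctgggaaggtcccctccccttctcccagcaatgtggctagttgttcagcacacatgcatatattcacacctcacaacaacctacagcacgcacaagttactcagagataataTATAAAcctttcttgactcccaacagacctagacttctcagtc

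The motif GTTAAT, bound by hepatocyte nuclear factor 1, was found in Umod at -202 from the start, and 7.1% of 32851 RefSeq promoter windows held it. The TATA box TATAAA was found at -32 in Slc12a3 and at -43 in Trpv5, and 13.6% of windows held it. RefSeq and the gene annotation place the start of Trpv5 differently, and the annotated gene (chromosome 6, 41652173 to 41680769, minus strand) already includes the Trpv5 TATA match. The AP-2 motif GCCNNNGGC, which reads the same on both strands, was found in Slc12a3 at -73, in Trpm6 at -68 and in Umod past the start, and 16.6% of windows held it. Neither AAGGTCA, the core bound by estrogen-related receptors, nor AGAACA, bound by mineralocorticoid and glucocorticoid receptors, was found in the windows of the 8 members that had one, and these are held by 4.72% and 19% of windows. No windows were found for Scnn1a and Calb1.

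Umod was the most abundant of the 10 genes in every group on a scale of TMM-scaled CPM per kilobase of exon. Its level per length was 1293 ± 276 (SD, n = 5) in young, 1219 ± 527 (n = 4) in aged IgG2a and 1210 ± 379 (n = 4) in aged aPD1ab libraries, which placed it 16th, 31st and 26th of 16279 genes. Slc12a3 followed with 247.6 ± 59.2 CPM per kilobase in young, and its range did not overlap that of Umod in any group, but overlapped that of Calb1 in young. Calb1, Egf and Slc12a1 came next in changing order, and their ranges overlapped with one another in each group. In young libraries these were 172.6 ± 59.6 for Calb1, 139.9 ± 16.1 for Egf and 133.5 ± 32.0 for Slc12a1. The 3 sodium channel subunits came lower in one order, Scnn1a above Scnn1b above Scnn1g, in every library, although the ranges of Scnn1b and Scnn1g overlapped in every group and those of Scnn1a and Scnn1b in young. Trpv5 and Trpm6 were the least abundant. Trpv5 was above Trpm6 in 5 of 5 young libraries but in 1 of 4 aged IgG2a and 2 of 4 aged aPD1ab libraries. With the longest transcript in place of all exons as the length, Slc12a3 rose to 638.9 and Egf to 331.4 CPM per kilobase in young, which put Egf above Calb1.

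**Figure D1:**
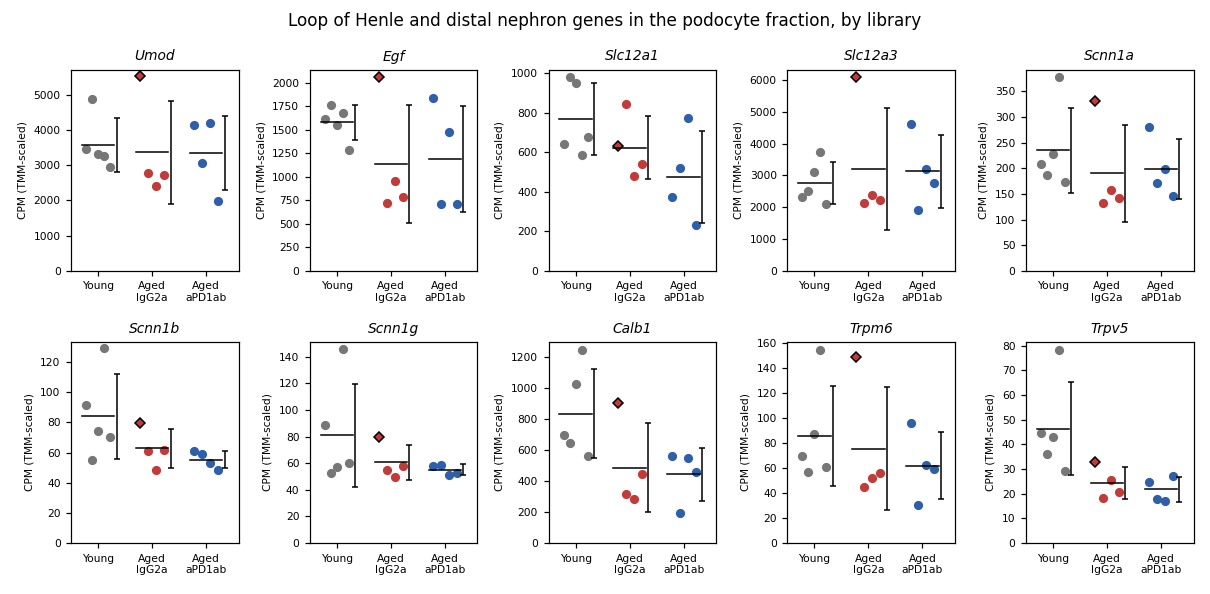
TMM-scaled CPM of the 10 genes in the 5 young, 4 aged IgG2a and 4 aged aPD1ab libraries. Each point is a library, the diamond is aged IgG2a replicate 1, the line is the mean and the bar the SD. Trpv5 lies between 29.4 and 78.4 CPM in young and between 16.9 and 32.7 CPM in aged libraries, and Slc12a3 overlaps in all groups.

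The first comparison asks what differed between aged mice given IgG2a and young mice. Across all libraries none of the 10 genes was called, against 9.05% of 15953 genes called higher and 8.38% called lower (edgeR quasi-likelihood test, adjusted p under 0.05). The median log2 fold change of the 10 genes was -0.30, beside 0.04 for all genes tested. Without aged IgG2a replicate 1, 3 of the 10 were called lower and none higher, against 23.5% of 16216 genes called lower and 22.1% higher. These were Egf, Calb1 and Trpv5. Their share was thus close to the share of all genes called lower in that setting. The median of the 10 was then -0.57, beside -0.01 for all genes.

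Trpv5, the apical channel through which distal tubule cells take up calcium, measured 44.7, 36.1, 43.1, 78.4 and 29.4 CPM in young libraries. Its levels were 32.7, 18.3, 25.6 and 20.8 CPM in aged IgG2a libraries. It was 24.7, 17.9, 16.9 and 27.3 CPM in aged aPD1ab libraries. All 4 aPD1ab libraries lay below the lowest young library, and of the IgG2a libraries only replicate 1 lay above it. The log2 fold change of Trpv5 in aged IgG2a against young was -0.86 (SE 0.28, adjusted p = 0.0572), and without IgG2a replicate 1 it was -1.03 (SE 0.31, adjusted p = 0.0245).

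Calb1, which encodes the cytosolic calcium carrier calbindin, measured 699.7, 648.6, 1026, 1246 and 561.4 CPM in young libraries. Its levels were 901.8, 315.0, 284.1 and 448.0 CPM in aged IgG2a libraries, of which only replicate 1 reached the young range. In aged aPD1ab libraries it measured 194.8, 552.1 and 461.9 CPM in replicates 2 to 4, below every young library, and replicate 1 lay just above the lowest young library. The log2 fold change of Calb1 in aged IgG2a against young was -0.73 (SE 0.37, adjusted p = 0.184) with all libraries and -1.18 (SE 0.29, adjusted p = 0.00743) without IgG2a replicate 1.

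Egf, which encodes epidermal growth factor, an autocrine stimulus of Trpm6 in the distal convoluted tubule, measured 1613, 1762, 1548, 1681 and 1285 CPM in young libraries. Its levels were 2062, 725.0, 951.0 and 788.8 CPM in aged IgG2a libraries. Replicate 1 was above every young library, and the other 3 were below every one. The log2 fold change of Egf was -0.43 (SE 0.30, adjusted p = 0.32) with all libraries and -0.87 (SE 0.15, adjusted p = 0.00104) without replicate 1. In aged aPD1ab libraries Egf measured 1843, 714.2, 1481 and 715.1 CPM, which spanned the young range.

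The salt cotransporters did not pass the test. Slc12a3 measured 2308, 2520, 3113, 3720 and 2107 CPM in young libraries. In aged IgG2a libraries it measured 6082, 2119, 2378 and 2217 CPM, so that replicate 1 was above all others and the remaining 3 lay within the young range. Its log2 fold change in aged IgG2a against young was 0.27 (95% interval -0.49 to 1.02, adjusted p = 0.599), and -0.22 (-0.66 to 0.21, adjusted p = 0.378) without replicate 1. Slc12a1, the cotransporter of the thick ascending limb and the target of loop diuretics, had a log2 fold change of -0.23 (95% interval -0.75 to 0.30, adjusted p = 0.513) with all libraries and -0.23 (-0.75 to 0.29, adjusted p = 0.449) without replicate 1. Umod had -0.03 (-0.65 to 0.60, adjusted p = 0.953) with all libraries and -0.36 (-0.78 to 0.06, adjusted p = 0.145) without replicate 1.

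The sodium channel subunits and Trpm6 did not pass the test either. Scnn1a, the subunit needed for a conducting channel, had a log2 fold change of -0.25 (adjusted p = 0.589) with all libraries and -0.64 (SE 0.24, adjusted p = 0.0554) without IgG2a replicate 1. Scnn1b and Scnn1g, which encode the regulatory subunits, had -0.35 (adjusted p = 0.312) and -0.35 (adjusted p = 0.422) with all libraries, and -0.47 (adjusted p = 0.152) and -0.50 (adjusted p = 0.257) without replicate 1. Scnn1g and Scnn1b are neighbours on chromosome 7, with 96562 bases and 1 non-coding gene between them, and the reads of Scnn1g for each read of Scnn1b stayed between 0.774 and 1.13 over the 13 libraries. Scnn1a gave 2.15 to 4.59 reads for each read of Scnn1b, with a wide spread inside each group. Trpm6 had a log2 fold change of -0.14 (95% interval -1.02 to 0.75) with all libraries and -0.67 (-1.43 to 0.08, adjusted p = 0.128) without replicate 1. Scnn1b overlaps Cog7 on the opposite strand, and where reads were counted without strand those of the 2 genes cannot be told apart. Cog7 held 12073 counts against 23208 for Scnn1b. Umod, Egf, Slc12a1 and Trpm6 overlap non-coding genes, and those of Egf, Slc12a1 and Trpm6 that are in the table had 696 counts or fewer each over the 13 libraries.

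**Figure D2:**
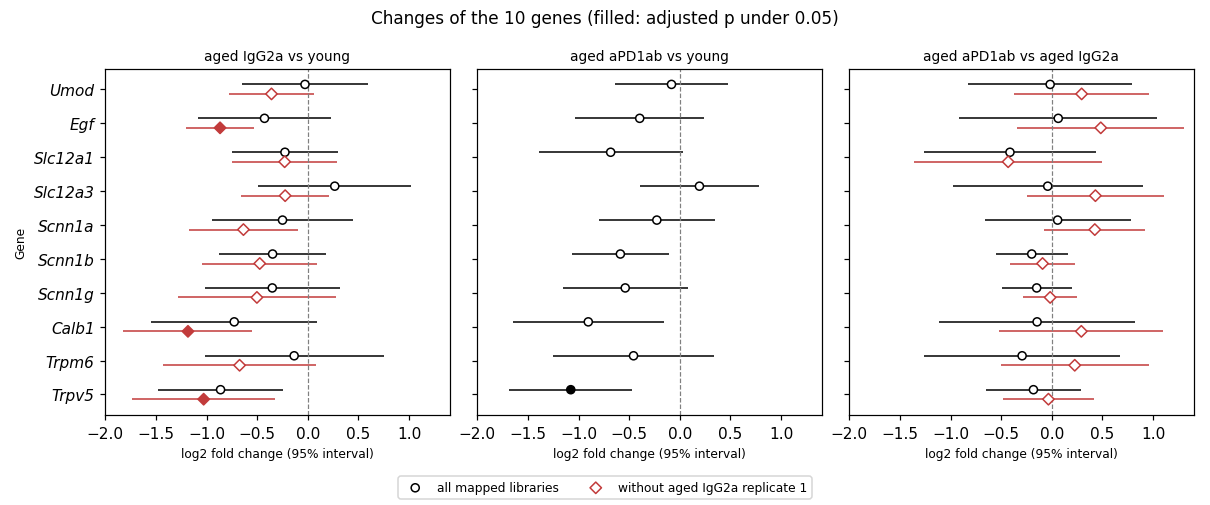
Log2 fold changes of the 10 genes in 3 comparisons with their 95% intervals, circles for all mapped libraries and diamonds without aged IgG2a replicate 1, filled where the adjusted p was under 0.05. Trpv5 is filled in aPD1ab against young (-1.08) and, with Egf and Calb1, in IgG2a against young without replicate 1.

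Aged aPD1ab libraries were then set against young libraries. Trpv5 was the 1 gene of the 10 that was called, and it was lower, against 9.97% of 15986 genes called lower and 12.4% called higher. Its log2 fold change was -1.08 (SE 0.27, adjusted p = 0.0204), a 2.11-fold lower level. Without aged aPD1ab replicate 3 it was -0.98 with an adjusted p of 0.051, so the call rests in part on that library. Calb1 had -0.90 (SE 0.34, adjusted p = 0.0787) and Scnn1b -0.59 (SE 0.22, adjusted p = 0.0764). Without young replicate 2, Scnn1b was called (-0.71, adjusted p = 0.0375). Slc12a1 had -0.68 (SE 0.32, adjusted p = 0.15). Slc12a1 measured 372.3, 520.3, 775.6 and 230.4 CPM in aged aPD1ab libraries, against 588.1 to 981.8 CPM in young ones, and only replicate 3 lay in the young range. Without replicate 3 its log2 fold change was -1.03 (adjusted p = 0.0373). Slc12a3 (0.19) and Umod (-0.08) had adjusted p-values of 0.632 and 0.84. The median log2 fold change of the 10 genes was -0.50, beside 0.02 for all genes tested.

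The effect of the anti-PD-1 antibody in aged mice was addressed by the comparison of aPD1ab with IgG2a. None of the 10 genes was called. With all libraries no gene at all was called in either direction (0% of 15530 higher and 0% lower by edgeR), although 4341 genes had an unadjusted p under 0.05 and DESeq2 called 1293 higher and 839 lower. The log2 fold changes of the 10 genes ranged from -0.41 for Slc12a1 to 0.06 for Egf. The interval for Trpv5 was -0.65 to 0.29 and that for Slc12a3 was -0.98 to 0.90, so changes of either sign remained within the error. Without IgG2a replicate 1, 17.1% of 15770 genes were called higher and 13.2% lower, and still none of the 10 was. Egf then had a log2 fold change of 0.48 (95% interval -0.34 to 1.31, adjusted p = 0.335), Slc12a3 had 0.43 (-0.24 to 1.10, adjusted p = 0.292) and Trpv5 had -0.03 (-0.48 to 0.42, adjusted p = 0.914). The narrowest intervals of the 10 were -0.28 to 0.25 for Scnn1g and -0.41 to 0.23 for Scnn1b, while that of Scnn1a was -0.07 to 0.92.

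All 8 aged libraries were also fitted against the 5 young ones, a fit added after the values had been seen. Trpv5 was the 1 gene of the 10 called, with a log2 fold change of -1.002 (SE 0.22, adjusted p = 0.0164), against 4.6% of 16034 genes called lower and 4.93% higher. Without IgG2a replicate 1, Trpv5 (-1.09, SE 0.22, adjusted p = 0.00923) and Calb1 (-1.04, SE 0.29, adjusted p = 0.0328) were called, against 6.29% of 15951 genes lower and 6.77% higher. Slc12a3 had 0.20 (adjusted p = 0.701) and 0.01 (adjusted p = 0.99) in these fits.

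Levels of Slc12a3 varied between libraries of a group, and the reads of each gene were also set against those of Slc12a3 in the same library. This measure was chosen after the values had been seen and is given as a description, without a test. Reads of Trpv5 per 1000 reads of Slc12a3 were 19.4, 14.3, 13.8, 21.1 and 13.9 in young libraries. They were 5.38, 8.64, 10.8 and 9.40 in aged IgG2a and 5.35, 9.39, 5.27 and 9.94 in aged aPD1ab libraries. All 8 aged libraries lay below all 5 young ones, aged IgG2a replicate 1 included. In replicate 1, however, the divisor Slc12a3 was at its highest of all libraries (6082 CPM). Trpv5 measured 32.7 CPM there, within the young range, so its separation in that library rests on the divisor.

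Calb1 behaved in the same manner on this measure, with 257.4 to 335.0 reads per 1000 Slc12a3 reads in young, 119.5 to 202.1 in aged IgG2a and 102.1 to 171.9 in aged aPD1ab libraries. In CPM, Calb1 in IgG2a replicate 1 (901.8) also lay within the young range. Of the 9 other members, these were the 2 that were lower in all 8 aged libraries, beside 1.24% of 16329 genes that were lower and 0.288% that were higher in all 8. Egf came near, with 451.9 to 699.3 in young and 260.4 to 461.2 in the 8 aged libraries. Trpm6, which is made in the same segment as Slc12a3, overlapped, with 22.7 to 41.6 in young and 15.9 to 25.3 in aged libraries. Umod, Slc12a1, Scnn1a, Scnn1b and Scnn1g overlapped as well.

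**Figure D3:**
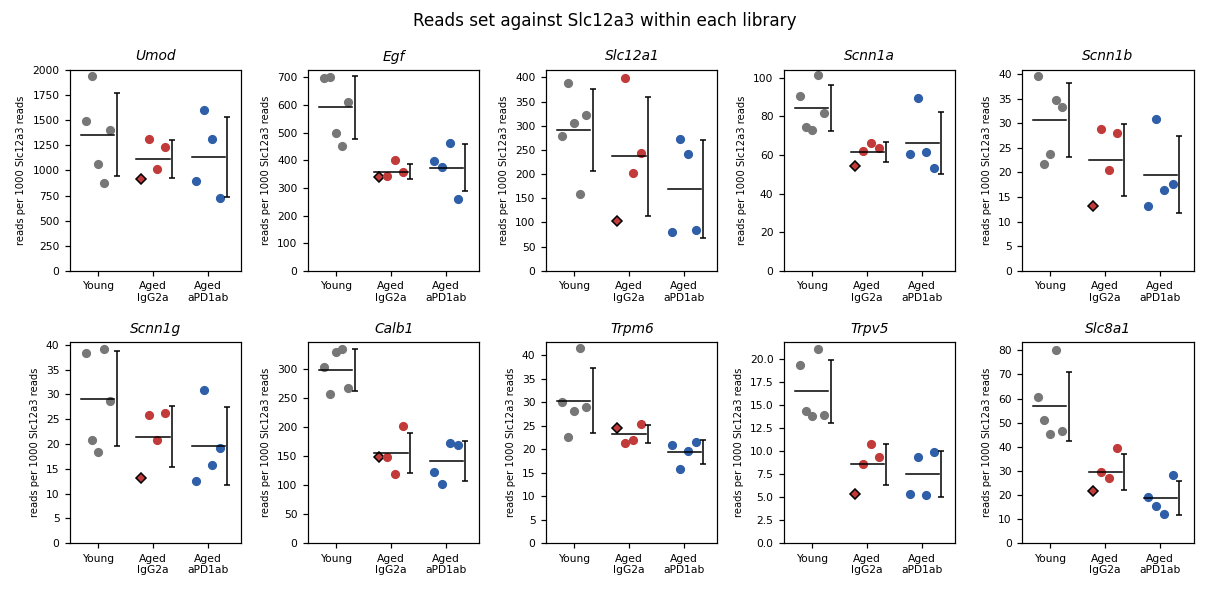
Reads per 1000 Slc12a3 reads in each library for the 9 other members and for Slc8a1. Points are libraries, the diamond is aged IgG2a replicate 1, the line is the mean and the bar the SD. Calb1, Trpv5 and Slc8a1 are lower in all 8 aged than in all 5 young libraries. The divisor, Slc12a3, is highest in the diamond library.

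Other genes of calcium and magnesium handling were examined as a list of 15. In aged IgG2a against young, 3 of the 14 tested were lower and none higher, against 8.38% and 9.05% of all genes, with a list median of -0.37 beside 0.04 for all genes. These were Klk1, which encodes tissue kallikrein (-0.80), Kl, which encodes the FGF23 co-receptor Klotho (-1.15), and Egfr, the receptor for epidermal growth factor (-1.06). Without IgG2a replicate 1, 11 of 15 were lower and 1 was higher, against 23.5% and 22.1% of all genes, with a median of -0.95 beside -0.01. Klk1 (-0.95), Kl (-1.56) and Egfr (-1.60) were again among the lower ones, as were Vdr, the vitamin D receptor (-1.16, adjusted p = 0.000158), and Slc8a1, the sodium-calcium exchanger of the basolateral membrane (-1.10, adjusted p = 0.0347). The higher one was Atp2b1, a calcium pump of the plasma membrane (0.57, adjusted p = 0.000311).

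With aPD1ab, 5 of the 14 tested were lower and 1 was higher than in young, against 9.97% and 12.4% of all genes. The lower ones were Slc8a1 (-1.45, adjusted p = 0.0268), Kl (-0.92), Klk1 (-0.83), Vdr (-0.55) and Atp2b1 (-0.37), and the higher one was Fxyd2, a regulator of the sodium pump (0.66, adjusted p = 0.008). Slc8a1 gave 45.1 to 80.1 reads per 1000 Slc12a3 reads in young, 21.6 to 39.6 in aged IgG2a and 12.0 to 28.2 in aged aPD1ab libraries. Kl and Klk1 were also lower in all 8 aged libraries on this measure, as 1.24% of 16329 genes were. In CPM, Slc8a1 (131.2) and Kl (778.3) in IgG2a replicate 1 lay within the young range. Their separation in that library thus rests on the divisor Slc12a3. Klk1 measured 1850 CPM there, below the lowest young library (1932 CPM). Kl is made in the proximal tubule as well as the distal convoluted tubule. In aPD1ab against IgG2a without replicate 1, 5 of 14 were higher (Fxyd2, Vdr, Kl, Egfr and Kcnj16), where 17.1% of all genes were. Atp2b1 was lower, where 13.2% of all genes were. With all libraries none was called. In the setting without replicate 1, all 13 proximal tubule markers were called higher as well. The part of proximal tubule RNA in the changes of these 5 genes was not tested.

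Among 15 partners of Slc12a1 and Umod in the thick ascending limb, 1 of 14 tested was lower in aged IgG2a against young, where 8.38% of all genes were. It was the claudin gene Cldn10 (-0.95, adjusted p = 0.0316). Without replicate 1, 4 of 14 were lower, Cldn10 (-1.15), Kcnj1, Cldn16 and Casr, where 23.5% of all genes were. Casr, the calcium-sensing receptor, was the 1 lower in aged aPD1ab against young (-0.93, adjusted p = 0.00954), where 9.97% of all genes were. Of the 3 macula densa genes, Pappa2, a protease of insulin-like growth factor binding proteins, was higher in aged IgG2a against young (1.67, adjusted p = 0.0199) and without replicate 1 (1.53, adjusted p = 0.0092). In these settings 9.05% and 22.1% of all genes were higher.

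Of the 8 regulators of the salt cotransporters, none was called in aged IgG2a against young with all libraries. Without replicate 1, 1 of them, Cul3, was lower (-0.27, adjusted p = 0.0184), where 23.5% of all genes were. Nr3c2, the mineralocorticoid receptor, was lower in aged aPD1ab against young (-0.57, adjusted p = 0.0392), where 9.97% of all genes were. Wnk4, a kinase that acts on Slc12a3, was 84.5 to 141.2 reads per 1000 Slc12a3 reads in aged aPD1ab libraries and 89.6 to 94.7 in young ones, which overlapped. Of the 7 regulators of the epithelial sodium channel, Prss8, a protease that activates it, was lower in aged IgG2a against young (-1.13, adjusted p = 0.0244). Furin was lower as well (-0.36, adjusted p = 0.0447), where 8.38% of all genes were. Without replicate 1, Prss8 had -1.57 (adjusted p = 9.01e-06) and Furin -0.41 (adjusted p = 0.005), Nedd4l was also lower and Tsc22d3 was higher. In that setting 23.5% of all genes were lower and 22.1% higher. In aPD1ab against IgG2a without replicate 1, Prss8 was higher (1.92, adjusted p = 0.00867), where 17.1% of all genes were. All 13 proximal tubule markers were higher there too, and their part in the change of Prss8 was not tested. With all libraries Prss8 was not called.

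Of the 11 transcription factors of the distal nephron, none was called in aged IgG2a against young with all libraries and 6 were lower without replicate 1, where 23.5% of all genes were. In aged aPD1ab against young, Esrrg (-0.71, adjusted p = 0.0123) and Tfcp2l1 (-0.75, adjusted p = 0.0241) were lower and Emx1 was higher (0.72, adjusted p = 0.0404). Of all genes, 9.97% were lower and 12.4% higher there. Esrrg and Tfcp2l1 were also lower in the fit of all aged libraries, where 4.6% of all genes were.

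Markers of other cell types moved with the groups. The 13 proximal tubule markers summed to 11820 to 17990 CPM in young, 1822 to 9283 CPM in aged IgG2a and 9257 to 26830 CPM in aged aPD1ab libraries. Of these, 11 of 13 were called lower in aged IgG2a against young, where 8.38% of all genes were. The 10 macrophage markers summed to 5252 to 8742 CPM in young, 6583 to 19060 CPM in aged IgG2a and 4180 to 12790 CPM in aged aPD1ab libraries. Of these, 7 of 10 were called higher in aged IgG2a against young, where 9.05% of all genes were. Without replicate 1, all 13 proximal tubule markers were called lower and all 10 macrophage markers higher in that comparison, against 23.5% and 22.1% of all genes. In aged IgG2a against young with all libraries, 10 of 14 podocyte, 7 of 10 endothelial, 3 of 7 mesangial and smooth muscle and 2 of 10 intercalated cell markers were also lower. Higher there were 1 podocyte, 2 of 7 T cell and 2 of 6 B cell and plasma cell markers. Set against young, aged aPD1ab libraries had 6 of 14 podocyte, 4 of 7 mesangial and smooth muscle, 4 of 10 intercalated cell and 3 of 10 endothelial markers called lower. In that comparison 2 of 7 T cell and 2 of 6 B cell and plasma cell markers were called higher, and none of the proximal tubule or macrophage markers was called. The shares of all genes there were 9.97% lower and 12.4% higher. In aged aPD1ab against aged IgG2a without IgG2a replicate 1, all 13 proximal tubule markers were called higher, where 17.1% of all genes were. There, 9 of 10 macrophage markers were called lower, where 13.2% of all genes were. With all libraries no marker was called in that comparison. With the proximal tubule marker score as a covariate, Trpv5 stayed called in aPD1ab against young (-1.09, adjusted p = 0.0158), and Calb1 (-1.09, adjusted p = 0.00966) and Egf (-0.56, adjusted p = 0.0419) were called as well. In aged IgG2a against young the same covariate turned Calb1 to 0.24 (adjusted p = 0.869) and Egf to 0.62 (adjusted p = 0.335), and Trpv5 was -0.56 (adjusted p = 0.659). The score was 0.374 to 1.004 in young and -2.198 to 0.062 in aged IgG2a libraries. Because these ranges do not overlap, that fit cannot separate the score from the group. The part of these cell types in the changes of the 10 genes was not tested further.

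**Figure D4:**
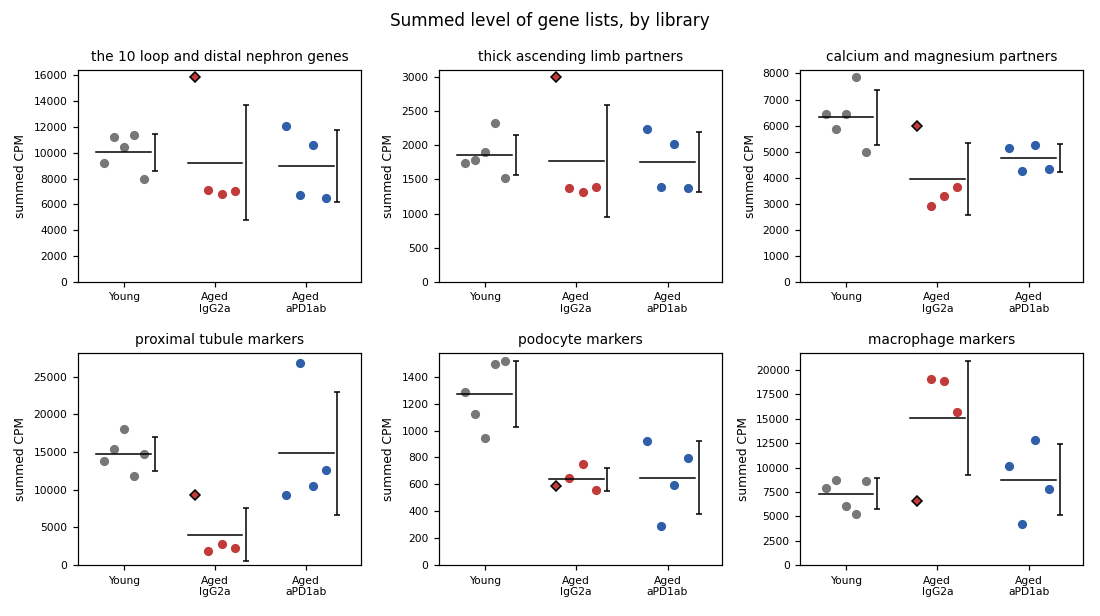
Summed TMM-scaled CPM of the 10 genes, of 2 lists of their partners and of 3 lists of cell type markers in each library. Points are libraries, the diamond is aged IgG2a replicate 1, the line is the mean and the bar the SD. The podocyte marker sum is below 947 CPM in all aged libraries, and the proximal tubule sum is 1822 to 9283 CPM in aged IgG2a.

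The 10 genes did not vary as 1 block across the libraries. Over the 45 pairs, the median Pearson correlation of log2 CPM across the 13 libraries, which share group and cell makeup, was 0.624, with a lowest value of -0.113 for Slc12a1 and Slc12a3. Scnn1g followed Hsd11b2, which inactivates glucocorticoids in cells that respond to aldosterone (r = 0.957), and Scnn1b followed Tmem45b (0.936) and Hsd11b2 (0.935). Slc12a3 was nearest to Phyhip (0.975) and Slc12a1 to Egfl6 (0.982). Trpv5 was nearest to Dmd (0.959), Calb1 to Polk (0.956), Scnn1a to the potassium channel gene Kcnq1 (0.968) and Trpm6 to Sfrp1 (0.973). Umod had the lowest nearest value, 0.906 with Bicdl1, of 16330 genes searched. These are descriptions over 13 libraries of 3 groups and carry no test.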

How the data were processed

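The authors aligned reads with HISAT2 and counted them per gene with featureCounts on mm10/GRCm38, per the submitters' processing notes, whose versions were not given in the sources used here. The deposited table holds raw counts per gene. Of its 15 columns, 2 were not used because the groups read from the study's principal component plot did not include them. Gene symbols, lengths and positions came from GENCODE M21 (GRCm38).

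The counts were scaled by TMM and filtered by filterByExpr, and only the libraries of the groups compared entered a fit in edgeR 4.0.16 (robust quasi-likelihood test, Benjamini-Hochberg adjustment, R 4.3.3). Genes were called at an adjusted p under 0.05. The standard error was taken from the fold change and the F statistic. The method was tested on simulated data. Values are TMM-scaled CPM with a prior count of 2 on the log2 scale. The named genes are the 10 listed, with other genes taken from 17 lists of partners and cell type markers. The 10 genes and the lists were chosen with earlier results of these data known. Alternatives were relative log expression factors, library totals, DESeq2 1.42.0, limma 3.58.1 voom with sample weights, no filter, a fit of all 3 groups, a proximal tubule covariate, a 2-fold threshold, the longest transcript as length and leaving out each library. Depth and its precision are given with the data. P-values set the difference between groups against the spread between the libraries of each group.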

Additional observations from a re-analysis of the deposited data

Results flagged for a closer look

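Slc12a3 in the aged IgG2a group was flagged because 1 library, replicate 1, stood apart from the other 3: it measured 6082 CPM against 2119 to 2378 CPM, and on the log2 scale its gap to the nearest library was 0.891 of the whole range, above Dixon's critical value for 4 libraries. It was the only flag among the 30 groups of libraries examined, 3 for each of the 10 genes, and chance flags about 1 group in 20.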

How the results depend on the processing

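No paired analysis was possible because the columns carry no replicate number shared between the groups. In aged IgG2a against young, 1443 genes were called higher and 1337 lower, beside 331 and 3380 with library totals alone, 2158 and 2094 with DESeq2, 3875 and 3548 with weighted voom, 828 and 1065 with no filter on low counts, 33 and 5 with the proximal tubule covariate and 621 and 732 past 2-fold. Leaving out 1 library gave 260 to 3584 higher and 293 to 3813 lower. In aged aPD1ab against aged IgG2a, 0 genes were called higher and 0 lower, beside 1293 and 839 with DESeq2, 3240 and 2920 with weighted voom and 1861 and 1002 with the fit of all 3 groups. Leaving out 1 library gave 0 to 2702 higher and 0 to 2086 lower. In aged aPD1ab against young, 1984 genes were called higher and 1594 lower, beside 856 and 1632 with library totals alone, 2680 and 2412 with the proximal tubule covariate and 336 and 430 past 2-fold. Leaving out 1 library gave 1293 to 2122 higher and 1024 to 1746 lower. In aged IgG2a against young, the log2 fold change changed sign with library totals alone for Slc12a3 (-0.065), with weighted voom for Slc12a3 (-0.03), with the proximal tubule covariate for Umod (0.74), Egf (0.62), Scnn1a (0.54), Calb1 (0.24) and Trpm6 (0.86). With 1 library left out, Umod -0.36 to 0.11, Trpm6 -0.67 to 0.19, Slc12a3 -0.22 to 0.41 crossed 0. In aged aPD1ab against aged IgG2a, the log2 fold change changed sign with library totals alone for Umod (0.16), Slc12a3 (0.14), Scnn1b (0.031), Scnn1g (0.081), Calb1 (0.044) and Trpv5 (0.074), with weighted voom for Umod (0.065), Slc12a3 (0.35), Calb1 (0.38), Trpm6 (0.19) and Trpv5 (0.058), with the proximal tubule covariate for Egf (-0.21) and Scnn1a (-0.38). With 1 library left out, Egf -0.21 to 0.48, Scnn1a -0.14 to 0.42, Umod -0.15 to 0.29, Slc12a3 -0.28 to 0.43, Calb1 -0.32 to 0.29, Trpm6 -0.57 to 0.23 crossed 0. For aged aPD1ab against young, Umod -0.22 to 0.10, Scnn1a -0.44 to 0.003 and Slc12a3 -0.057 to 0.37 crossed 0 with 1 library left out. None of the values that changed sign was past the threshold, and the cause was not tested. Trpv5 was called in aged aPD1ab against young in every alternative except without aPD1ab replicate 3 (-0.98, adjusted p = 0.051). In aged IgG2a against young it was called with DESeq2, voom, library totals, the fit of all 3 groups, without young replicate 5 and without IgG2a replicate 1. Weighted voom with all libraries called 3 of the 10 genes lower in that comparison, Trpv5 among them. Against young, in aged aPD1ab, Calb1 was called with DESeq2 and with the covariate, Scnn1b with DESeq2 and without young replicate 2, Slc12a1 with voom and without aPD1ab replicate 3, and Egf with the covariate. The lowest count of the 10 genes, 302, leaves a counting error below the spread between libraries.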

Other observations

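Of the 7 markers of collecting duct principal cells, 2 were called higher and 1 lower in aged aPD1ab against young, where 12.4% and 9.97% of all genes were, with a list median of 0.10 on the log2 scale beside 0.02 for all genes. The higher ones were the water channel genes Aqp2 (1.68, adjusted p = 0.00454) and Aqp3 (0.89, adjusted p = 0.0448), and the lower one was Npnt (-0.89, adjusted p = 0.0203). Aqp2 measured 69.1 to 182.6 CPM in young, 153.0 to 376.7 CPM in aged IgG2a and 268.8 to 456.9 CPM in aged aPD1ab libraries. Npnt measured 164.2 to 313.1 CPM in young, 60.7 to 137.3 CPM in aged IgG2a and 79.7 to 146.1 CPM in aged aPD1ab libraries. In aged IgG2a against young, Aqp2 was higher with all libraries (1.05, adjusted p = 0.0486) and had an adjusted p of 0.0632 without IgG2a replicate 1, while Npnt was lower in both settings. Of the 10 intercalated cell markers, 2 were called lower in aged IgG2a against young, where 8.38% of all genes were, 5 were without replicate 1, where 23.5% were, and 4 were in aged aPD1ab against young, where 9.97% were, with none higher.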
